A study of Mus musculus with 10 samples.

Results

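The bile duct spots of healthy mouse liver were the Visium spots over tissue that held 2 or more UMIs (unique molecular identifiers, 1 per captured RNA molecule) summed over Krt19, Krt7, Epcam, Sox9 and Spp1. They were looked for in the sections NEJ638, NEJ654 and NEJ677 among the 8111 spots that lay over tissue and held at least 2000 UMIs. The rule found 1661 duct spots, 888 in NEJ638, 424 in NEJ654 and 349 in NEJ677, out of 3338, 2374 and 2399 kept spots. The other side of the comparison was the 4306 kept spots with 0 UMIs of the 5 genes, and the 2144 spots with 1 such UMI belonged to neither side. The series holds 10 sections of 7 tissues, and the study ran Visium on tumors of the ABC-Myc mouse, a genetic model of hepatoblastoma in which MYC is expressed in liver cells through Alb-Cre. Its text speaks of 4 tumors and 3 healthy livers and names the tumors only, so NEJ638, NEJ654 and NEJ677 are taken as the healthy livers by elimination, and control mice in the study were littermates on the C57BL/6J background that lacked Alb-Cre, the CAG-MYC allele or both. Which alleles each of these 3 livers carried was not given, age and sex were not given either, and the GEO labels list the same tissue term, hepatoblastoma, for every sample. The labels do not say that the 3 sections came from separate mice. The p-values thus speak for these 3 sections only. They set the difference between the sides within a section against a variation that the test estimated partly from all genes together. All results are given in the order NEJ638, NEJ654, NEJ677 where 3 values stand together.

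Bile ducts are tubes of cholangiocytes, the epithelial cells that collect bile from the hepatocytes and modify it by secretion. In the liver they run inside portal tracts, beside a branch of the portal vein, a hepatic artery, lymphatic vessels, nerves and a sheath of fibroblasts and elastic matrix. Hepatocytes differ along the path of the blood, and those near the portal tract make urea and glucose while those near the central vein make glutamine and bear most of the drug-metabolizing cytochromes. Krt19 and Krt7 encode keratins of the duct epithelium, Epcam a surface adhesion protein, Sox9 a transcription factor of the ducts, and Spp1 the secreted protein osteopontin. A Visium spot is a small round region of the section that holds several cells, so a duct spot is a stretch of tissue in which a duct may lie and not a duct cell.

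Spp1 carried the rule. It made up 88.9, 89.0 and 92.4% of all UMIs of the 5 genes over the kept spots, and 98.3, 98.3 and 99.1% of the duct spots held at least 1 Spp1 UMI. Krt19 was present in 13.9, 11.6 and 8.88% of the duct spots, Krt7 in 9.23, 6.37 and 6.30%, Epcam in 18.2, 17.0 and 13.8% and Sox9 in 7.32, 17.0 and 14%. In 558, 251 and 236 duct spots Spp1 was the only one of the 5 genes found. These values chose the members and are a description. The median duct spot held 3 UMIs of the 5 genes in every section, and the highest held 85, 59 and 61. At the threshold itself, 386, 186 and 173 spots held exactly 2 UMIs, and 970, 616 and 558 spots held 1. The duct spots were deeper than the spots with 0, with a median of 13892.5, 18892.5 and 20205 UMIs per spot against 11967.5, 16103 and 13701.

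**Figure D1:**
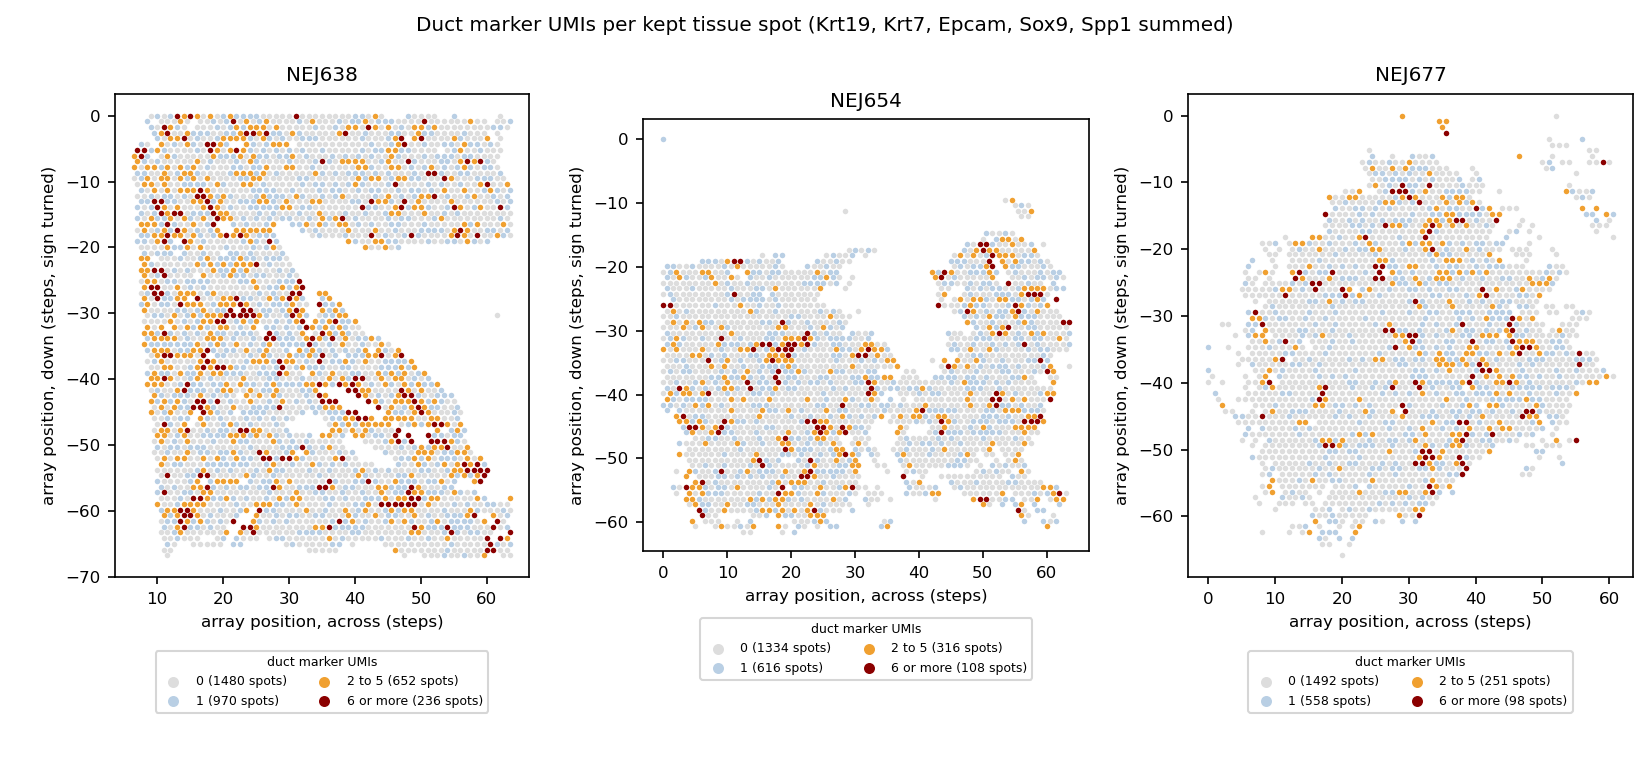
Position of every kept spot on the array for the 3 liver sections, in array steps across and down, colored by the number of duct marker UMIs in the spot. Spots with 6 or more UMIs (236 in NEJ638, 108 in NEJ654, 98 in NEJ677) lie in small clusters and short rows, and spots with 2 to 5 UMIs are spread more widely.

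The duct spots lay near each other. Of the neighbors of a duct spot that were kept spots, 40.9, 34.7 and 31.3% were duct spots too, against 19, 13.5 and 10.4% of the neighbors of a spot with 0 UMIs. They formed 207, 157 and 138 separate patches, of which 96, 91 and 77 were single spots, and the largest patch held 54, 31 and 17 spots.

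Duct marker RNA was also found beyond the tissue. Off the tissue, 1542, 2504 and 2056 spots held 2000 or more UMIs, and 37.8% (35.4 to 40.3), 13.8% (12.5 to 15.2) and 22.1% (20.4 to 24.0) of these had 2 or more UMIs of the 5 genes, with 95% Wilson intervals that cover counting error only. Over the tissue the shares were 26.6% (25.1 to 28.1), 17.9% (16.4 to 19.5) and 14.5% (13.2 to 16.0). In NEJ638 and NEJ677 the share over tissue was thus below that off the tissue, and the share of spots that pass the rule is not read here as the extent of bile ducts. Median depth off the tissue was 12013, 10774.5 and 11513.5 UMIs per spot. With 6 or more UMIs the shares off the tissue were 5.45% (4.42 to 6.69), 1.08% (0.742 to 1.56) and 1.12% (0.747 to 1.67), and those over the tissue 7.07% (6.25 to 7.99), 4.55% (3.78 to 5.46) and 4.09% (3.36 to 4.95). At this count the over-tissue share was higher in all 3 sections, with overlapping intervals in NEJ638 only. Other strict rules did not give that order in NEJ638: 12.3% of spots off the tissue held 2 or more of the 5 genes against 9.71% over it, and 9.79% held Krt19 or Krt7 against 7.55%, with overlapping intervals for the latter. In NEJ654 and NEJ677 both shares were higher over the tissue, with overlapping intervals except for 2 or more genes in NEJ654. For that reason the comparison of duct spots is also given for the spots with 6 or more UMIs, an alternative chosen after these values had been seen.

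**Figure D2:**
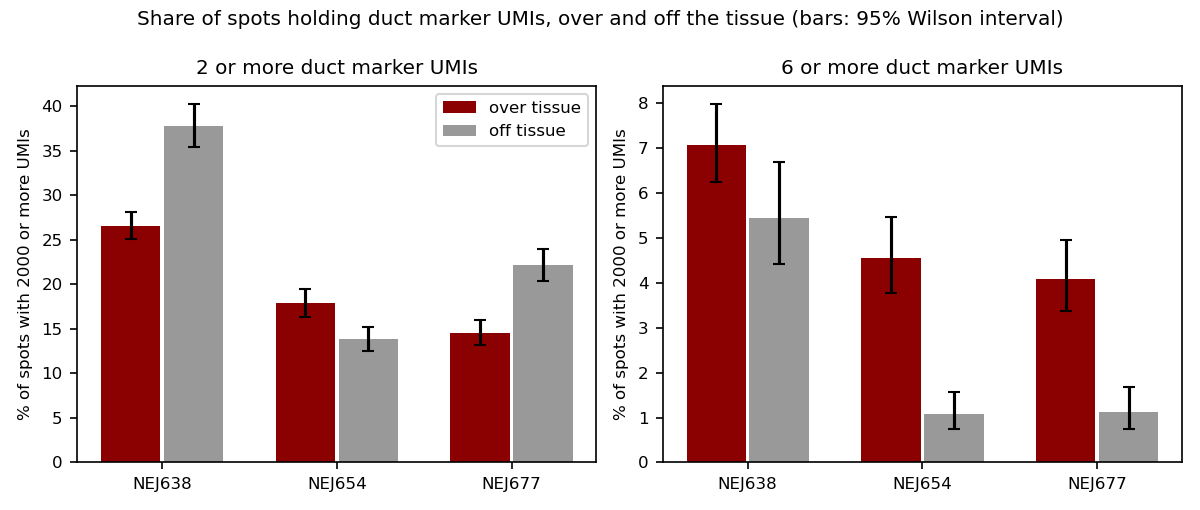
Share of spots with 2 or more (left) and 6 or more (right) duct marker UMIs among spots of at least 2000 UMIs, in percent, over and off the tissue in each section, with 95% Wilson intervals as error bars. With 2 or more UMIs the off-tissue share is the higher one in NEJ638 (37.8 against 26.6%) and NEJ677 (22.1 against 14.5%), and with 6 or more UMIs the over-tissue share is the higher one in every section.

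The label was checked with each marker held out in turn. Spots were chosen by 2 or more UMIs of the other 4 genes against 0, and the gene left out was read from the fit. All 5 were higher in spots they had not chosen. Held-out Krt19 was at 13.0, 6.0 and 4.80 CPM (UMIs of the gene per 1000000 UMIs of the summed spots) in such duct spots and at 2.34, 0.835 and 0.546 CPM in the spots without, a log2 fold change of 2.65 (SE 0.18, edgeR adjusted p = 6.67e-14). Held-out Epcam changed by 3.2 on the log2 scale (SE 0.18, edgeR adjusted p = 6.78e-14), Krt7 by 2.79 (SE 0.27, edgeR adjusted p = 2.34e-09) and Sox9 by 1.81 (SE 0.21, edgeR adjusted p = 2.25e-09). Krt7 was at 1.27, 0.178 and 0.321 CPM in the spots without. It reached the test's filter, a mean of 1 CPM, only through the duct side, so its p-value is no support by itself. Held-out Spp1, measured in the 109, 51 and 42 spots with 2 or more UMIs of the 4 other genes, reached 941, 689 and 904 CPM against 70.5, 40.7 and 40.5 CPM, which was 15.9-fold higher (log2 fold change 3.99, SE 0.09, edgeR adjusted p = 3.26e-31). When every spot was thinned to 2000 UMIs, Krt19, Krt7 and Epcam kept an adjusted p under 0.05 and Sox9 did not (log2 fold change 2.17, edgeR adjusted p = 0.202). These fits had no filter on low genes and rest on few UMIs. For Krt7 the thinned duct side held 334000, 132000 and 154000 UMIs of all genes. Before thinning, Krt7 had 150, 34 and 29 UMIs over all kept spots. For Spp1 the thinned duct side held 10, 2 and 1 spots, too few to count.

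Duct spots were compared with the spots of 0 duct marker UMIs to ask which other genes share the portal tract with the duct. UMIs were summed per section and side, and edgeR's quasi-likelihood test with section as a block was run on 12021 genes, the 5 rule genes left out. In the duct spots 856 genes were higher (7.12% of those tested) and 756 were lower (6.29%) at an adjusted p under 0.05, with a median log2 fold change of -0.01 over all genes. DESeq2 called 327 higher and 240 lower, the spots thinned to 2000 UMIs each gave 184 and 475 with 169, 66 and 77 duct spots left, and a fit without section as a block gave 9 and 0. With Spp1 left out of the rule the counts were 1181 and 940, and the median log2 fold change went from 1.44 to 2.68 for portal fibroblast genes, from 1.38 to 2.65 for antigen presentation, from -0.08 to -0.51 for Kupffer cell genes and from -0.55 to -1.12 for pericentral genes. Of the 15 highest named genes, 3 were on the portal fibroblast list (Mgp, Gsn and Dpt), 2 on duct lists (Tspan8 and Cd24a), 1 on the lymphatic list (Ccl21a), 1 on the arterial and venous list (Cd34) and 8 on none, and of the 10 lowest, 5 were on the pericentral list (Lhpp, Cyp2a5, Oat, Axin2 and Slc1a2) and 5 on none. In sums over spots, fewer cells of a type and less RNA per cell cannot be told apart.

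The 15 named genes with the largest increase spanned log2 fold changes from 1.94 (Htra1) to 3.59 (Ccl21a). Ccl21a (chromosome 4, 42772860-42773993, minus strand, GRCm38), a chemokine made by lymphatic endothelium that attracts dendritic cells and T cells, was at 28.8, 21.9 and 30.1 CPM in the duct spots and at 3.02, 1.87 and 1.75 CPM in the spots without, 12-fold higher (log2 fold change 3.59, SE 0.12, edgeR adjusted p = 5.96e-23). Near-identical copies of this gene lie close by, so which copy gave the UMIs is uncertain. Tspan8, a tetraspanin of epithelial cells, was at 9.59, 4.91 and 4.04 CPM against 0.479, 0.891 and 0.322 CPM (log2 fold change 3.43, SE 0.25, edgeR adjusted p = 1.74e-13). It passed the filter of a mean of 1 CPM only through the duct side, so its call and rank are no support by themselves. Cd24a, a surface protein of progenitor and duct cells, was at 13.7, 9.71 and 8.23 CPM against 1.96, 0.981 and 0.966 CPM (log2 fold change 3.0, SE 0.17, edgeR adjusted p = 9.00e-17). Both epithelial genes were thus highest in the duct spots of NEJ638, and lowest in those of NEJ677. Mgp (chromosome 6, 136872435-136875823, minus strand), matrix Gla protein, an inhibitor of calcification, was at 107, 51.8 and 70.3 CPM against 19.6, 7.09 and 4.74 CPM (log2 fold change 2.87, SE 0.11, edgeR adjusted p = 1.00e-21). Gsn (chromosome 2, 35256380-35307892, plus strand), gelsolin, an actin-severing protein, was at 91.4, 111 and 115 CPM against 21.2, 21.1 and 10.5 CPM (log2 fold change 2.57, SE 0.10, edgeR adjusted p = 3.45e-21). Those 2 were the most abundant of the 15, and their levels without duct markers were lowest in NEJ677. Fxyd3, a regulator of the sodium pump in epithelia, was at 9.45, 5.75 and 8.23 CPM against 1.91, 0.713 and 0.552 CPM (log2 fold change 2.84, edgeR adjusted p = 2.89e-13). Igfbp5, a secreted binding protein of insulin-like growth factors, was at 7.43, 8.15 and 4.32 CPM against 2.01, 1.29 and 0.92 CPM (log2 fold change 2.21, edgeR adjusted p = 2.14e-11). Dpt (2.20), a matrix protein of fibroblasts, Cd34 (2.33), a surface marker of vessel endothelium and fibroblasts, S100a6 (2.0), a calcium-binding protein, Serpine2 (1.98), a protease inhibitor, Htra1 (1.94), a secreted protease, Emp1 (2.31), a membrane protein of epithelia, Scara3 (2.85) and Prr15l (3.01) were the other genes of this set, with their log2 fold changes in parentheses.

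The 10 named genes with the largest decrease changed far less, from -0.83 (Cib2) to -0.66 (Slc13a3) on the log2 scale. Cyp2a5 (chromosome 7, 26835305-26843548, plus strand), a cytochrome of pericentral hepatocytes, was at 513, 397 and 443 CPM in the duct spots and at 856, 623 and 773 CPM in the spots without (log2 fold change -0.74, SE 0.03, edgeR adjusted p = 9.16e-20). Oat, ornithine aminotransferase, which feeds the pericentral synthesis of glutamine, was at 451, 1008 and 447 CPM against 773, 1575 and 762 CPM (log2 fold change -0.73, edgeR adjusted p = 9.91e-20). Its groups overlapped between sections, because both levels were high in NEJ654, but the duct value was the lower one within each section. Lhpp, a histidine phosphatase, was at 53.0, 72.9 and 52.4 CPM against 90.7, 122 and 89.1 CPM (log2 fold change -0.76, edgeR adjusted p = 1.31e-16). Slc1a2 (-0.67), the glutamate transporter of pericentral hepatocytes, Axin2 (-0.72), a target of Wnt signaling, Slc13a3 (-0.66), a dicarboxylate transporter, Fitm1 (-0.71), a lipid droplet protein, and Nxpe2 (-0.70) were lower as well. Cyp4a12b (-0.69) rested on 1 section, with 10.6 against 16.8 CPM in NEJ677 and at most 0.223 CPM elsewhere.

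Promoter sequences from RefSeq (build GRCm38.p6), from 250 bases before to 50 after the annotated start, were searched for genes that changed most, and for Spp1, the gene that chose most spots. Promoters were held for 11 of the 15 higher and 8 of the 10 lower named genes and for 3 of the 5 rule genes, Krt7, Epcam and Spp1. The motif GGAATG of the TEAD factors, through which the YAP pathway acts in duct cells, was present on either strand in 2 of the 11 higher genes, Fxyd3 and Igfbp5, and in 2 of the 8 lower genes, Oat and Slc1a2, against 16.6% of all 27025 genes with a promoter. No match was found in those genes to CAAAGTCCA (HNF4) or AACCGGTT (GRHL), which were present in 0.555 and 0.174% of all genes. A match is a description of the letters and not of binding. The 250 bases before the start are printed for 4 genes, 5′ to 3′ on the gene's strand, with the motif or its reverse complement in capitals.
Spp1, chr5:104434861-104435110, plus strand, no match: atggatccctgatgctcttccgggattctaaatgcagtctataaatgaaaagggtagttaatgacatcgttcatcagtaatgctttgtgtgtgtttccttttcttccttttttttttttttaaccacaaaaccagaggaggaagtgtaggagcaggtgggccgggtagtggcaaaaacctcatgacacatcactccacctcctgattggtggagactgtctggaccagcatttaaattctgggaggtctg
Fxyd3, chr7:31076698-31076947, minus strand: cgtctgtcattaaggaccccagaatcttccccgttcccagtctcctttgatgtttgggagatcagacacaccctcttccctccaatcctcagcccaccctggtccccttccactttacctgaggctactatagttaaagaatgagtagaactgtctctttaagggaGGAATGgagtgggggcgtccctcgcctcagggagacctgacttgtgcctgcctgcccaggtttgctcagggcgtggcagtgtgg
Igfbp5, chr1:72874866-72875115, minus strand: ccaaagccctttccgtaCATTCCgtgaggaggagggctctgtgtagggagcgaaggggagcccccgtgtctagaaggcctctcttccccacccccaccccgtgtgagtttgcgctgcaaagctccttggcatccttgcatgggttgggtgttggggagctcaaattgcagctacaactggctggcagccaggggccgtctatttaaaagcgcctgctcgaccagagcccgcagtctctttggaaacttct
Oat, chr7:132576399-132576648, minus strand: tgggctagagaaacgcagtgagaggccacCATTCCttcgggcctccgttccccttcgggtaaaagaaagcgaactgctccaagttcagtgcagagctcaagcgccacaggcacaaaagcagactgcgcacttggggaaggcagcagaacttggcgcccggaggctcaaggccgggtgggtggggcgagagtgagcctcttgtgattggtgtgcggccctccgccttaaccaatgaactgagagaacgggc

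Some list members passed the filter of 1 CPM only through the duct side, where they were high, and so had to differ. They were 4 of 10 on the list of duct secreted and surface proteins, 3 of 9 arterial and venous, 2 of 7 antigen presentation and 1 each of the duct cytoskeleton, portal fibroblast, lymphatic, T and NK cell and chemokine lists, and the counts and medians of these lists are no support by themselves. Of 10 tested genes among the duct secreted and surface proteins 9 were higher and 0 lower, with a median log2 fold change of 0.99, and of the 6 that reached the filter without the duct side 5 were higher, with a median of 0.63. The 9 included Muc1, a mucin of the luminal surface (2.72, edgeR adjusted p = 3.47e-11), Spint1, a protease inhibitor of epithelia (3.22, edgeR adjusted p = 4.95e-10), and Wfdc2, a secreted protein of duct epithelia (1.19, edgeR adjusted p = 4.41e-10). The 4 let in only by the duct side were all among the 9, and these 3 values are given as a description. Pigr, which carries immunoglobulin A into bile, was at 157, 726 and 508 CPM against 67.0, 484 and 311 CPM (log2 fold change 0.80, edgeR adjusted p = 5.01e-15). Pigr is also made by hepatocytes, and its level differed far more between sections than between the sides. Clu, clusterin, was at 1389, 1531 and 1667 CPM against 1094, 1323 and 1362 CPM, a log2 fold change of 0.28. Of 12 cytoskeleton and junction genes 7 were higher with a median of 0.34, against 6 with 0.19 without NEJ638, 5 without NEJ654 and 10 without NEJ677. Among them were Cldn7, a claudin of tight junctions (2.90), Ezr, the ezrin of apical membranes (1.46), and Cdh1, E-cadherin (0.80). The 1 member let in only by the duct side was among the 7, and these 3 values are given as a description. Of the 11 that reached the filter without the duct side 6 were higher, with a median of 0.33. Krt8 (0.10) and Krt18 (0.07), keratins that hepatocytes share, did not pass the test. For transport and the primary cilium, by which duct cells sense flow, 5 of 10 were higher (3 without NEJ638), with Bicc1, an RNA-binding protein whose loss gives cystic ducts, at 11.5, 9.35 and 8.78 CPM against 4.64, 1.56 and 1.43 CPM (log2 fold change 1.92) and Pkhd1, the fibrocystin of the cilium, changed by 0.77. Of the duct transcription factors, Sox4 (1.28) and Elf3 (0.78) were higher. Of 10 tested genes of the Notch and YAP pathways, which specify duct cells during development, 7 were higher and 0 lower: the ligand Jag1 (0.86), the receptor Notch3 (1.56), the targets Heyl (1.26), Nrarp (1.12) and Hes1 (0.49), and the YAP targets Ctgf (1.87) and Cyr61 (0.62). Jag1, Notch3 and Heyl are also known from arterial walls. DESeq2 called 9 of the 10 secreted and surface genes and 5 of the 12 cytoskeleton and junction genes higher. It called 3 of the 10 transport and cilium genes and 5 of the 10 Notch and YAP genes higher. Genes of the lists that fell under the filter of 1 CPM, such as Cftr with 5, 1 and 4 UMIs in the duct spots against 1, 0 and 0, were not tested.

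Connective tissue genes of the portal tract were higher almost throughout. Interior spots, those with 6 neighbors over tissue, made up 74.3, 74.1 and 81.9% of the duct spots. In the spots without duct markers they made up 85.1, 79.2 and 84.1%. Mesothelial genes, markers of the liver surface, summed to 13.2 against 4.93 CPM in NEJ638. With interior spots alone 662 genes of all kinds were higher and 591 lower. All 15 tested genes of the portal fibroblast and elastic fiber list were higher in the duct spots, with a median log2 fold change of 1.44. DESeq2 called 12 of them. The summed level of the list was 534, 365 and 399 CPM against 190, 120 and 85.2 CPM. Eln, elastin, was at 118, 36.9 and 48.4 CPM against 46.6, 15.6 and 7.82 CPM (log2 fold change 1.54, SE 0.10, edgeR adjusted p = 6.49e-15). Its level in the spots without duct markers of NEJ638 exceeded that in the duct spots of NEJ654, so the groups overlapped between sections while the duct side was higher within each. Fbln1 (1.87), Mfap4 (1.77) and Loxl1 (1.35) of the elastic fiber, Thy1 (1.77), a surface marker of portal fibroblasts, were higher too. Igfbp6 (1.26) rested on NEJ638, with 5.74 against 2.30 CPM there and at most 0.139 CPM elsewhere. Of 17 collagen and matrix genes 16 were higher, with a median of 0.57, and DESeq2 called 12 of the 17. Col1a1, the main fibrillar collagen, was at 96.2, 24.1 and 20.2 CPM against 39.2, 11.3 and 5.34 CPM (log2 fold change 1.32, edgeR adjusted p = 1.04e-16), and Col4a1, of basement membranes, changed by 0.39. Dcn, decorin, was the gene that did not pass (log2 fold change 0.00, edgeR adjusted p = 0.978). Among 13 stellate cell genes 5 were higher and 2 lower, with 3 higher without NEJ654 or without NEJ677. The 5 included Pdgfrb (1.09), Cygb (1.17) and Des (0.83), which other perivascular cells express too, and the 2 lower were Reln (-0.46) and Ecm1 (-0.20), while Lrat, which stores retinol in stellate cells, was at 25.1, 14.6 and 13.8 CPM against 26.3, 15.3 and 15.4 CPM (edgeR adjusted p = 0.483).

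Of 9 tested arterial and venous endothelial genes 8 were higher, and of the 6 that reached the filter without the duct side 5 were higher, with a median log2 fold change of 0.68. The list's summed level was 70.0, 52.9 and 52.7 CPM against 36.9, 29.5 and 22.0 CPM. Vwf, von Willebrand factor of large vessels, was at 16.7, 12.9 and 13.2 CPM against 8.18, 8.83 and 4.55 CPM (log2 fold change 0.98, edgeR adjusted p = 2.60e-08). Among all 9, Ly6c1 changed by 2.84, Adgrg6 by 2.70 and Dll4, a Notch ligand of arteries, by 0.79. The 3 genes let in only by the duct side were all among the 8, and these values are given as a description. With DESeq2 4 of the 9 were called. Of 9 tested genes of vessel smooth muscle 6 were higher with a median of 0.43, against 4 with 0.28 without NEJ638 and 5 of 10 with 0.71 without NEJ654. They were led by Myh11, smooth muscle myosin (1.93), and Acta2, smooth muscle actin, at 26.9, 12.2 and 5.30 CPM against 8.47, 2.59 and 0.828 CPM (log2 fold change 1.88, edgeR adjusted p = 1.83e-14). The level of Acta2 in the duct spots of NEJ677 lay below that in the spots without duct markers of NEJ638. DESeq2 called 4 of the 9 smooth muscle genes. Of 4 tested lymphatic genes 2 were higher, Ccl21a and Mmrn1 (2.79), whereas Prox1, which hepatocytes also express, and Flt4 did not pass. Mmrn1 passed the filter of 1 CPM only through the duct side, so its call is no support by itself. Of the 3 that reached the filter without the duct side, 1 was higher, with a median of -0.03. The sinusoidal and central vein lists went the other way. Of 11 sinusoidal genes 4 were lower and 0 higher (median -0.14), the largest called change being that of Oit3 (-0.21), and of 5 central vein genes 3 were lower, Wnt2 (-0.52), Rspo3 (-0.49) and Kit (-0.53), the first 2 of which drive the pericentral program of hepatocytes. None of these 7 lower calls was made by DESeq2. Without NEJ638 the lower calls were 1 sinusoidal and 0 central vein, without NEJ654 3 and 1, and without NEJ677 2 and 3.

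**Figure D3:**
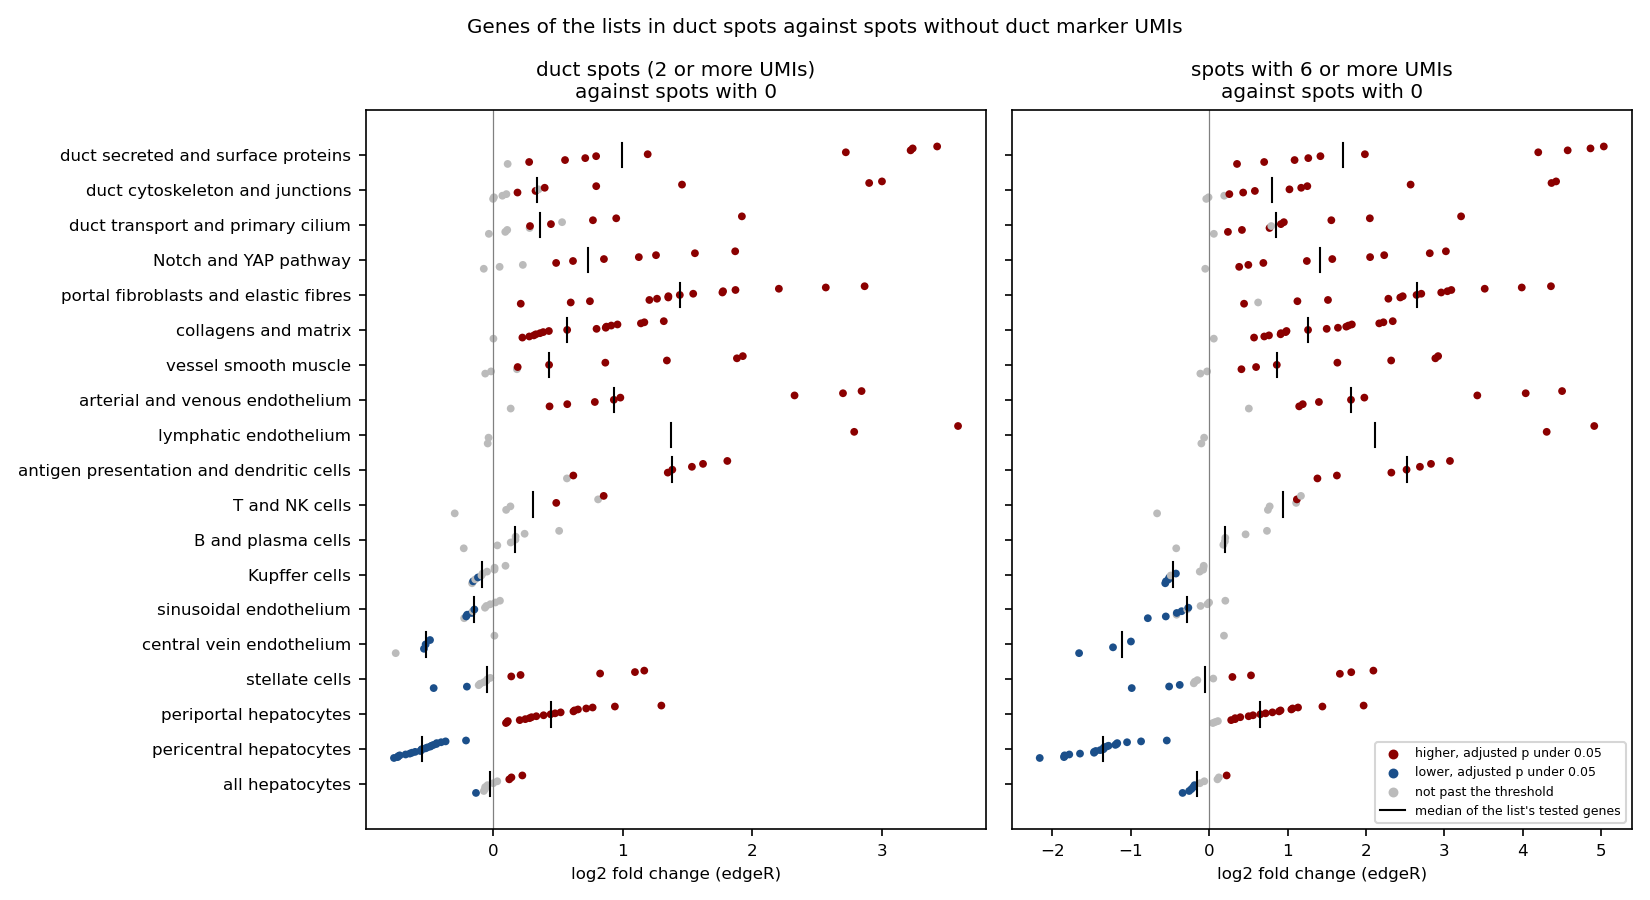
Log2 fold change (edgeR) of each gene of 19 lists in duct spots (left) and in spots with 6 or more duct marker UMIs (right) against spots with 0, for the genes tested in the left comparison. Points are genes, colored by the test, and the black bar is the list's median. The portal fibroblast list lies wholly to the right of 0 with a median of 1.44 on the left, and the pericentral list wholly to the left of 0 with a median of -0.55.

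Of 7 tested genes of antigen presentation and dendritic cells 6 were higher, with a median log2 fold change of 1.38 and a summed level of 232, 214 and 231 CPM against 59.0, 87.9 and 103 CPM. DESeq2 called 4 of the 7. Cd74, the invariant chain of MHC class II, was at 99.5, 94.2 and 117 CPM against 24.8, 41.8 and 56.8 CPM (log2 fold change 1.38, SE 0.08, edgeR adjusted p = 2.18e-16), and H2-Eb1, a class II chain, at 33.0, 29.2 and 28.7 CPM against 8.28, 8.74 and 9.06 CPM (log2 fold change 1.81, edgeR adjusted p = 9.91e-20). Their levels in the duct spots were alike in the 3 sections, and for Cd74 the level without duct markers was lowest in NEJ638. Class II genes are expressed by dendritic cells, macrophages and B cells. Of 10 Kupffer cell genes, the resident macrophages of the sinusoids, 0 were higher and 2 lower, Clec4f (-0.12, edgeR adjusted p = 0.0390) and Cd5l (-0.15, edgeR adjusted p = 0.00700), and DESeq2 called neither. Without NEJ638 1 was lower, without NEJ654 0 and without NEJ677 1. The list's median log2 fold change was -0.08, against -0.003, -0.05 and -0.11 with these sections left out in turn. With spots of a low mitochondrial share alone, Clec4f differed by 0.00 and the median of the list was 0.04. Of 6 tested T and NK cell genes 2 were higher, Ccl5 (0.49, edgeR adjusted p = 0.00456) and Cd3g (0.85, edgeR adjusted p = 0.0498), with 0 called by DESeq2 and 0 by edgeR without NEJ654. For B and plasma cells 0 of 7 passed with edgeR, 1 of them having an unadjusted p under 0.05 and 0 passing with DESeq2, and for neutrophils 0 of 3 passed with either tool and 0 had an unadjusted p under 0.05. Of 7 chemokines 3 were higher and 1 lower, with 0 higher without NEJ638 and 1 higher with DESeq2. Of these 3 higher genes 1 had passed the filter of 1 CPM only through the duct side. Cx3cl1, made by duct and vessel cells, changed by 2.24, Cxcl12 by 0.11 and Cxcl10, induced by interferon, by -0.54. These values are given as a description.

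Hepatocyte genes followed the axis between portal tract and central vein. All 19 periportal genes were higher in the duct spots, with a median log2 fold change of 0.44, and all 21 pericentral genes were lower, with a median of -0.55. DESeq2 called 15 of the 19 and 17 of the 21. Without NEJ638 edgeR called 19 and 18, without NEJ654 15 and 20, and without NEJ677 18 and 21. Aldh1b1, a mitochondrial aldehyde dehydrogenase, was at 313, 305 and 250 CPM against 144, 124 and 85.5 CPM (log2 fold change 1.3, SE 0.05, edgeR adjusted p = 1.82e-22). Sds, serine dehydratase of gluconeogenesis, was at 596, 287 and 255 CPM against 336, 145 and 121 CPM (log2 fold change 0.94, edgeR adjusted p = 8.04e-21). Among the 19 periportal genes the largest change was that of Aldh1b1, and for both genes the duct value was the higher one within each section. Cyp2f2, the periportal cytochrome, was at 996, 1021 and 1429 CPM against 632, 640 and 963 CPM (log2 fold change 0.63, edgeR adjusted p = 9.76e-19). Of the pericentral genes, Cyp2e1, an ethanol-oxidizing cytochrome, was at 1922, 2548 and 1810 CPM against 2928, 3924 and 2910 CPM (log2 fold change -0.64, edgeR adjusted p = 1.38e-19), and Glul, glutamine synthetase, at 246, 445 and 252 CPM against 381, 599 and 381 CPM (log2 fold change -0.55, edgeR adjusted p = 6.68e-15). Spots on both sides were rich in hepatocyte RNA, the 10 general hepatocyte genes summing to between 145973 and 184650 CPM in the duct spots and between 137410 and 171567 CPM in the others. The 5 pancreas genes were at 0 UMIs in the duct spots. Of the 5 proliferation genes 0 were called by edgeR or DESeq2 and 0 had an unadjusted p under 0.05.

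In the spots with 6 or more duct marker UMIs 1510 genes were higher (12.2% of 12343 tested) and 1337 were lower (10.8%). Ccl21a changed by 4.91 on the log2 scale, Mgp by 4.36 and Gsn by 3.99. Tspan8, which passed the filter of 1 CPM only through the duct side, changed by 5.03. In what follows, lists are counted over the members that reached 1 CPM in the spots without duct markers alone, so that the duct side decided no entry, and the same members are set beside their values in the duct spots. Portal fibroblast genes had 14 of 14 higher in both comparisons, with a median log2 fold change of 1.49 in the duct spots and 2.67 at 6 or more UMIs, and antigen presentation genes 5 of 5 in both, with 1.53 and 2.69. Collagen and matrix genes had 16 of 17 higher in both, with 0.57 and 1.26. Of the duct lists, secreted and surface genes went from 5 to 6 of 6 higher (median 0.63 and 1.18), cytoskeleton and junction genes from 6 to 8 of 11 (0.33 and 0.58), transport and cilium genes from 5 to 8 of 10 (0.37 and 0.85) and Notch and YAP genes from 7 to 9 of 10 (0.74 and 1.41). Smooth muscle genes went from 6 to 7 of 9 higher (median 0.43 and 0.86), arterial and venous genes had 5 of 6 in both (0.68 and 1.3), and lymphatic genes 1 of 3 in both. Of the pericentral genes 21 of 21 were lower in both, with medians of -0.55 and -1.35, and Cyp2a5 changed by -1.84 at 6 or more UMIs. Kupffer cell genes went from 2 to 5 of 10 lower (median -0.08 and -0.46), and sinusoidal genes from 4 to 5 of 11. Periportal genes went from 19 of 19 called higher to 16 of 19, with a median of 0.65, and the 10 general hepatocyte genes from 3 higher and 1 lower to 1 higher and 5 lower, where the first counts were 1 and 0 without NEJ654 and 2 and 0 without NEJ677. The ring comparison below was not run on that class.

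Levels by number of duct marker UMIs are a description, since that number is the rule. Just outside and just inside the threshold, at 1 and 2 UMIs, the summed portal fibroblast genes were at 200 and 249 CPM in NEJ638, 122 and 160 CPM in NEJ654 and 96.7 and 142 CPM in NEJ677. At 6 or more UMIs they reached 1178, 939 and 1000 CPM. Antigen presentation genes stayed between 65.8 and 120 CPM at 1 to 3 UMIs in all sections and reached 585, 498 and 509 CPM at 6 or more. Collagen and matrix genes, too, were near their level at 0 UMIs up to 4 to 5 UMIs in NEJ654 and NEJ677, and most of the rise lay in the last class. The pericentral genes fell more evenly, from 13937, 17016 and 13943 CPM at 0 UMIs to 6385, 8394 and 6748 CPM at 6 or more.

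**Figure D4:**
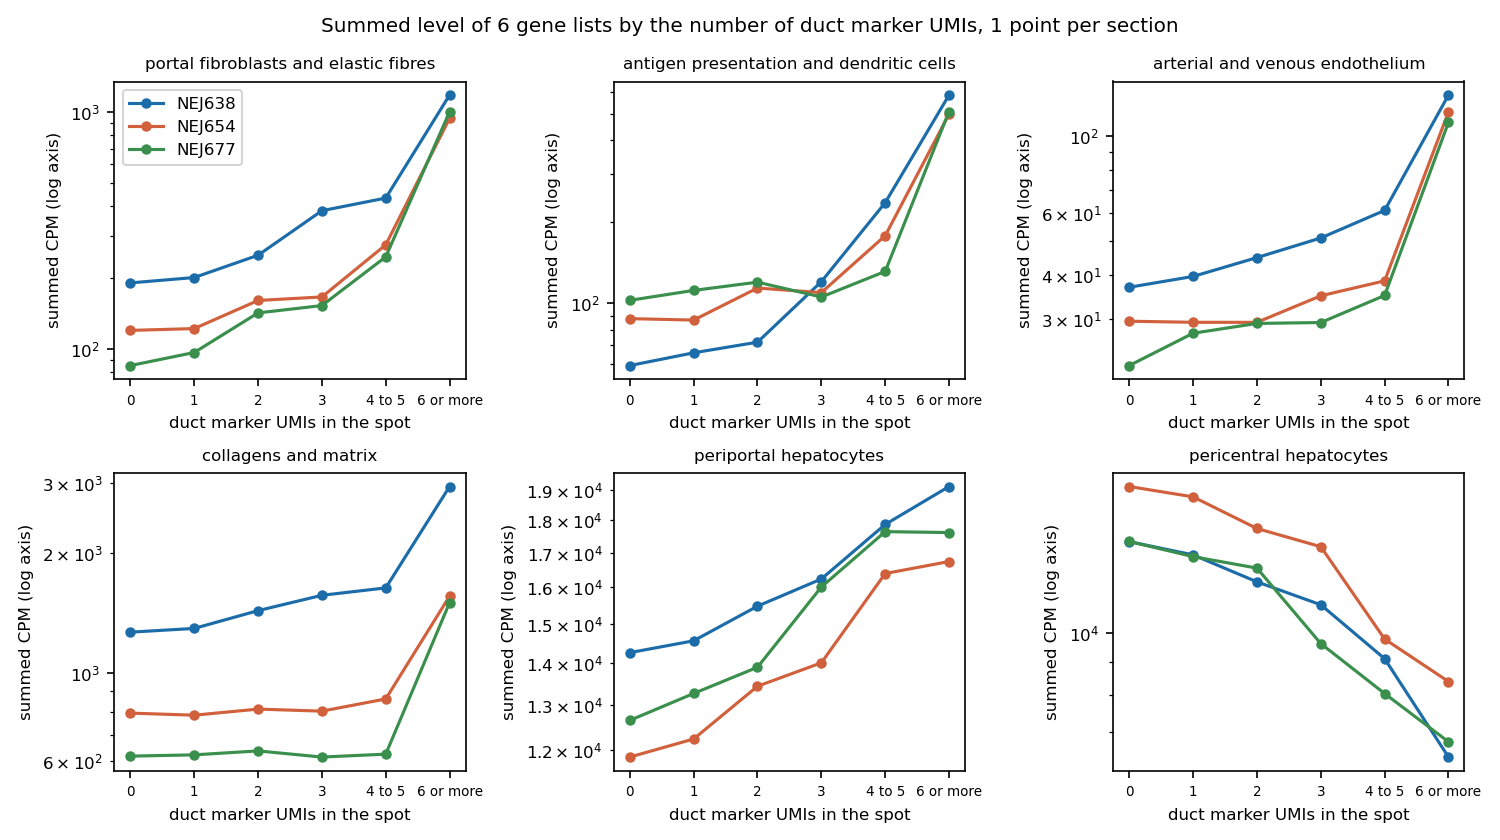
Summed level of 6 gene lists, in CPM on a log axis, in spots with 0, 1, 2, 3, 4 to 5 and 6 or more duct marker UMIs, 1 line per section. Portal fibroblast, antigen presentation, endothelial and collagen genes are highest in the last class, where portal fibroblast genes reach 939 to 1178 CPM, while pericentral genes fall from class to class.

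A reference matched on hepatocyte zone was used next. Each duct spot was paired with a spot of 0 duct marker UMIs of like depth and like ratio of 5 periportal to 5 pericentral genes, and those 10 genes were left out of the test. The median log2 ratio was 1.32, 0.73 and 1.72 in the duct spots, 0.07, -0.68 and 0.00 in all spots without, and 0.69, 0.58 and 1.61 in the matched spots, so that the match was least complete in NEJ638. Of 11984 genes 569 were higher (4.75%) and 459 lower (3.83%). Over the members that reached 1 CPM in the spots without duct markers, portal fibroblast genes had 13 of 14 higher, collagens 16 of 17, antigen presentation 4 of 5 and duct secreted proteins 6 of 6. Periportal genes had 6 higher and 1 lower of 14, with Aldh1b1 at 0.77 and Sds at 0.46, and pericentral genes 10 lower of 16, with Cyp2a5 at -0.15. Of the Kupffer cell genes 7 of 10 were lower with this reference, with a median log2 fold change of -0.28, and of the 4 central vein genes tested 0 were called.

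The same rule was applied to the spots off the tissue. There 58 genes were higher (0.489% of 11866) and 50 lower (0.421%), of which 55 and 32 were called the same way over the tissue. Portal fibroblast genes had 6 of 15 higher with a median log2 fold change of 0.47, antigen presentation 4 of 6 with 0.52, periportal hepatocytes 9 of 19 with 0.14, and pericentral hepatocytes 11 of 21 lower with -0.18. These 4 medians had the sign of those over tissue and were smaller. Other lists went both ways. The duct secreted median was 0.23 off the tissue, with 2 of 8 higher, and the cytoskeleton median 0.11, with 1 of 12 higher. For T and NK cells the median was larger off the tissue, 0.59 against 0.31, with 0 of 5 called and 0 at an unadjusted p under 0.05. For chemokines it was 0.10 over the tissue and -0.02 off it. Mitochondrial transcripts took a median of 4.83, 6.68 and 5.13% of UMIs off the tissue against 1.79, 2.50 and 2.33% over it. Within the tissue the median was 1.94, 2.71 and 2.82% in duct spots and 1.72, 2.43 and 2.22% in spots without duct markers. The part of free RNA and of mitochondrial share in the results was not tested beyond these values, and with spots of a low mitochondrial share alone 673 genes were higher and 676 lower.

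To ask how far the differences reach, spots of 0 duct marker UMIs beside a duct spot (922, 655 and 582) were compared with those 3 or more array steps from every duct spot (113, 218 and 416). Both groups had 0 captured UMIs of the 5 genes, which does not show that the RNA was absent, and spots at 3 steps were shallower, with a median of 9664.5, 13478 and 10670 UMIs against 12299.5, 16480 and 16798.5 at 1 step. With the beside spots drawn down to the number of distant spots by nearest depth, 68 genes were higher and 59 lower, but in NEJ677 the match was incomplete, with 5657520 UMIs beside against 4497330 in the distant spots. In all, 95 genes were higher beside the duct spots (0.800% of 11869) and 78 lower (0.657%). The periportal and pericentral lists held 16 of the genes called higher and 14 of those called lower. Of the 19 periportal genes 16 were higher (median log2 fold change 0.33), and of the 21 pericentral genes 14 were lower (median -0.32). Sds was at 386, 168 and 152 CPM beside the duct spots and at 249, 121 and 91.4 CPM in the distant ones (log2 fold change 0.64, edgeR adjusted p = 1.13e-20), and Glul at 330, 512 and 305 CPM against 549, 659 and 521 CPM (log2 fold change -0.57, edgeR adjusted p = 1.88e-22). The 3 Glul values beside the duct spots all lay below the 3 distant ones. Cyp2f2 changed by 0.51, Hsd17b6 by 0.61 and Oat by -0.57. Of 14 portal fibroblast genes 1 was higher, Mgp (0.79, edgeR adjusted p = 0.0260), at 20.1, 8.49 and 5.96 CPM against 12.5, 3.90 and 4.22 CPM. Of 6 antigen presentation genes 0 were called by edgeR and 0 had an unadjusted p under 0.05, and DESeq2 gave none of them an adjusted p. Col1a1 (-0.62) and Col3a1 (-0.24) were lower beside the duct spots, at 34.2, 9.99 and 5.05 CPM against 66.0, 12.8 and 5.56 CPM for Col1a1, a change carried mostly by NEJ638. The 8 mesothelial genes, markers of the liver surface, summed to 3.52 CPM beside the duct spots and 12.5 CPM in the distant spots of NEJ638, against at most 0.404 CPM in the other sections there, and their part in this result was not tested. Kupffer cell genes were higher, 4 of 10, with Marco, a scavenger receptor, at 30.5, 27.2 and 34.6 CPM against 20.9, 24.8 and 20.2 CPM (log2 fold change 0.53, edgeR adjusted p = 6.63e-04), and Clec4f changed by 0.29. DESeq2 called 0 of the 5 Kupffer cell genes it gave an adjusted p, which it gave to 2205 genes in all.

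Of the other named genes of this comparison, Rsad2 (0.97), an antiviral protein induced by interferon, Defb1 (0.68), a defensin of epithelia, Gas2 (0.63), Arsg (0.66) and Hba-a1 (0.60), a hemoglobin chain, were higher beside the duct spots. Wnt2 (-0.68) and Sp5 (-0.98), a target of Wnt signaling, Tbx3os1 (-0.93), Pparg (-0.89), a nuclear receptor of lipid metabolism, Nhej1 (-0.81) and Npr2 (-0.73), a natriuretic peptide receptor, were lower. Without NEJ677 27 genes were higher and 23 lower, without NEJ654 37 and 39, and without NEJ638 153 and 80. When the distant spots were those 4 or more steps away, of which there were 23, 56 and 152, 0 genes were higher with edgeR, 325 of them having an unadjusted p under 0.05, and 8 were lower.

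**Figure D5:**
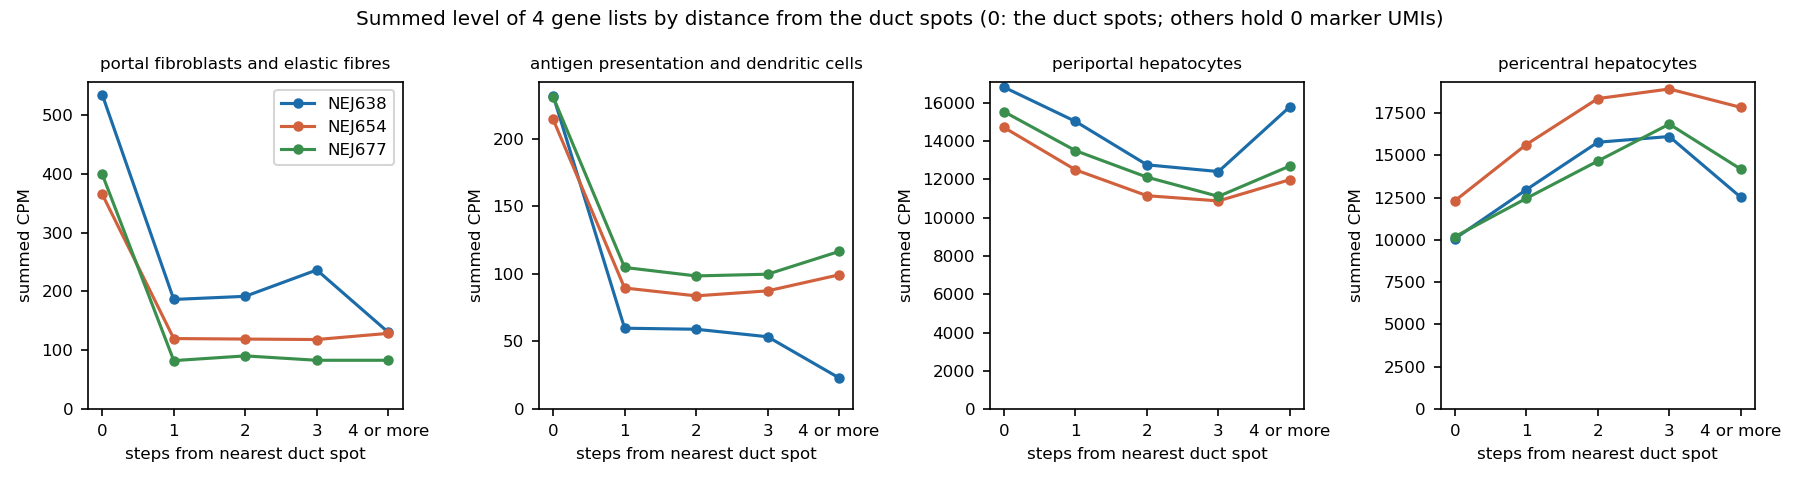
Summed level of 4 gene lists, in CPM, against the distance in array steps from the nearest duct spot, 1 line per section; distance 0 is the duct spots and all others hold 0 duct marker UMIs. Portal fibroblast genes drop from 365 to 534 CPM at 0 steps to 82.4 to 186 CPM at 1 step, while periportal genes decline and pericentral genes rise over 3 steps. Between 0 steps and 1 step the rule itself parts the spots, so that change cannot show how far genes reach.

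By distance, the summed periportal genes were at 16822, 14718 and 15541 CPM in the duct spots, at 15033, 12503 and 13506 CPM at 1 step, and at 12412, 10879 and 11115 CPM at 3 steps. Pericentral genes ran from 10074, 12308 and 10185 CPM in the duct spots over 12967, 15636 and 12454 CPM at 1 step to 16110, 18919 and 16844 CPM at 3 steps. Both lists turned back in the few spots 4 or more steps away. Portal fibroblast genes were at 186, 120 and 82.4 CPM at 1 step and at 236, 118 and 82.9 CPM at 3 steps, and antigen presentation genes at 59.8, 89.5 and 105 CPM and at 53.5, 87.4 and 99.7 CPM. The spots at 1 step hold 922 of 1480, 655 of 1334 and 582 of 1492 of all spots without duct markers. Duct spots and spots at 1 step are parted by the rule itself, so the change between them cannot show how far genes reach.

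NEJ638 stood apart from the other sections in several gene groups, on both sides alike. Its 5 proliferation genes summed to 126 CPM in the duct spots against 43.8 and 21.1 CPM in NEJ654 and NEJ677. H19, an imprinted non-coding RNA of fetal liver, was at 113, 13.4 and 7.53 CPM in the duct spots and at 59.4, 4.86 and 4.19 CPM in the spots without (log2 fold change 0.97, edgeR adjusted p = 1.61e-13), higher in the duct spots of each section. The other tested genes of the hepatoblast and hepatoblastoma list, Afp and Gpc3, did not pass. The median log2 fold change of the 3 was -0.09, and -0.39 at 6 or more UMIs. Msln, a mesothelial marker, was found almost only in NEJ638, at 6.35 against 3.16 CPM. Without NEJ638 639 genes were higher and 494 lower in the duct spots, and the portal fibroblast, antigen presentation and periportal lists still had 13, 5 and 19 members higher.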

How the data were processed

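The authors placed 10 µm frozen sections of liver on Visium slides, which capture polyadenylated RNA on barcoded spots, and deposited 1 matrix of raw UMI counts per section, 31053 genes by spot. For the spatial work the study's methods describe perfusion of the ABC-Myc mouse with EDTA and then with collagenase before the tissue was taken. They do not say there whether the healthy livers were perfused too, and its part in the results was not tested. The labels name Space Ranger 1.3 and mouse build mm10, and the study's methods name another Space Ranger version. The sections NEJ638, NEJ654 and NEJ677 held 70438823, 74596759 and 64955652 UMIs. Genes were matched by symbol.

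Spots over tissue with 2000 or more UMIs were kept. UMI counts were summed per section and side, a spot being no replicate, and tested with edgeR 4.0.16 in R 4.3.3 (quasi-likelihood F test, TMM scaling, section as a block, mean of at least 1 CPM over the sums, Benjamini-Hochberg adjustment over all genes tested, threshold 0.05). Section was the block because both sides came from the same piece of tissue. The 5 rule genes stayed in library sizes and out of the fits. CPM values are UMIs per 1000000 UMIs of the side. DESeq2 1.42.0 was an alternative. For the ring comparison matched on depth, the distant side was kept whole and the beside side drawn down to its number of spots. Counts were also simulated for 11957 genes, with 1 fixed dispersion for all and a small part of the genes changed. In the first comparison 26.6% of genes changed 1.2-fold and 78.5% of those changed 1.5-fold were recovered. A changed gene had the same simulated fold in every section, so these shares need not hold for the real counts.

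Named genes were the 15 highest and 10 lowest of the first comparison and the 8 highest and 6 lowest of the second that passed the threshold, moved 1 way in all 3 sections and reached 5 CPM on the higher side, leaving out predicted genes, pseudogenes and the rule genes, plus called or abundant members of the lists. Cftr, Lrat, Prox1 and Flt4 are named as defining markers. Members, lists and tests were chosen with earlier results of these data known. The low-mitochondrial, 6-UMI, Krt19-or-Krt7 and off-tissue alternatives were added after seeing the data. Ctgf and Cyr61 are the files' symbols. Sequences came from RefSeq. Results of 1 gene, of 1 motif and of the list that turns on that gene are not reported here.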

Additional observations from a re-analysis of the deposited data

Results flagged for a closer look

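Duct marker RNA was found in spots that the authors' image step placed off the tissue, which enter no comparison between groups of the tissue. Of the off-tissue spots with 2000 or more UMIs, 37.8% in NEJ638, 13.8% in NEJ654 and 22.1% in NEJ677 held 2 or more UMIs of the 5 duct genes. The shares over the tissue were 26.6, 17.9 and 14.5%, lower than those off the tissue in NEJ638 and NEJ677 and higher in NEJ654. Alb, a hepatocyte gene, was at 80366.5, 100841 and 68511.2 CPM off the tissue and at 69841.3, 85715.6 and 51708.2 CPM over it. RNA off the tissue was thus not of ducts alone. The cause was not tested.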

How the results depend on the processing

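Section as a block decided most calls, since both sides of a comparison share their section. With no replicate block, 9 genes were higher and 0 lower in the duct spots (59 lower at an unadjusted p under 0.05) and 0 were higher and 0 lower beside them (54 and 43 at an unadjusted p under 0.05). For the duct spots, genes higher and lower numbered 856 and 756, against 327 and 240 with DESeq2, 493 and 419 for spots with 1 or more duct UMIs, 184 and 475 for spots thinned to 2000 UMIs, 569 and 459 with the zone-matched reference, 1510 and 1337 with 6 or more duct UMIs, and 58 and 50 in off-tissue spots. Leaving out 1 section gave 639 to 742 higher and 390 to 535 lower, 390 without NEJ654 and 494 without NEJ638. Beside the duct spots, 95 and 78 became 37 and 27 with DESeq2, which gave an adjusted p to 2205 genes against 11869, 168 and 123 with distant spots from 2 steps, 0 and 8 from 4 steps, and 154 higher with no filter on low genes; leaving out 1 section gave 27 to 153 higher and 23 to 80 lower. Every held-out marker kept its direction, Sox9 at 2.17 without passing when thinned. Leaving out 1 section gave log2 fold changes of 2.55 to 2.97 for Krt19, 2.58 to 3.47 for Krt7, 2.99 to 3.38 for Epcam, 1.64 to 1.93 for Sox9 and 3.80 to 4.21 for Spp1. Of 511 values of list medians under alternatives, 148 moved by more than the spread between sections and 8 others turned as given below, and with Spp1 left out of the rule 17 of 19 moved. Calls of single genes were lost more often than directions. Over all alternatives, 275 of 2379 values of genes of the first comparison lost their call, and 95 of 231 of the second. In the first, 78 of 90 genes lost it with no replicate block and 31 with thinned spots. In the second, 16 of 21 lost it with DESeq2, 13 without NEJ677 and 20 with distant spots from 4 steps. Directions turned for few named genes. With thinned spots Heyl was at -0.11, and with a low mitochondrial share Clec4f was at 0.0025. In off-tissue spots Axin2 was at 0.040, Cd5l 0.016, Clec4f 0.070, H19 -0.013, Igfbp5 -0.057, Oit3 0.0015, Rspo3 0.0079, Slc13a3 0.0055 and Thy1 -0.11, and Hba-a1 was at -0.068 with distant spots from 4 steps. The median of the lymphatic list turned to -0.016 with a mean of at least 5 CPM and to -0.018 with 1 or more duct UMIs, of the Kupffer cell list to 0.030 with the non-adjacent reference, 0.040 with a low mitochondrial share and 0.0026 in off-tissue spots, and of all hepatocytes to between -0.020 and 0.0033 when leaving out 1 section (0.0033 without NEJ638), 0.013 with the non-adjacent reference and 0.0036 in off-tissue spots. The cause of these changes was not tested. Depth limits the low genes, which rest on few UMIs per section.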
